A study of Mus musculus with 12 samples.

Results

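The genes described here are the Wnt ligands of the mouse, their receptors and a set of regulators of the pathway, measured by RNA sequencing in 12 mouse melanoma tumors. They were chosen by name and not by their values: every protein-coding gene of the count table whose symbol is Wnt or Fzd followed by a digit, the co-receptor genes Lrp5, Lrp6, Ror1 and Ror2, the secreted antagonist genes Dkk2, Dkk3, Notum, Sfrp1, Sfrp2 and Sfrp4, the ubiquitin ligase genes Rnf43 and Znrf3, the cytoplasmic inhibitor genes Axin2 and Nkd1, and the transcription factor genes Lef1, Tcf7l1 and Tcf7l2. This gave 46 genes of the 55487 in the table: 19 ligands, 10 Frizzled receptors, 4 co-receptors, 6 secreted antagonists, 2 ubiquitin ligases, 2 cytoplasmic inhibitors and 3 transcription factors. The choice was made with earlier results of these data known.

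Wnt proteins are secreted lipid-modified ligands that bind Frizzled receptors. With the co-receptors LRP5 or LRP6 they stop the destruction of beta-catenin, which then activates LEF and TCF transcription factors and, among their targets, feedback inhibitors such as Axin2. With ROR1, ROR2 or other partners they signal through calcium, small GTPases and planar cell polarity proteins without beta-catenin. In melanoma cells WNT5A is known for the latter kind of signaling, and binding of WNT5A to FZD4 and LRP6 has been described to activate ARF6, a small GTPase of membrane traffic, and to free beta-catenin from N-cadherin. The question addressed here is whether transcripts of the pathway differ between tumors with and without Arf6.

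All 12 tumors carried the BrafCA allele, which yields an oncogenic Braf kinase after recombination, together with floxed Cdkn2a, a tumor suppressor locus. The genotype of the 6 wild-type tumors was BrafCA;Cdkn2af/f and that of the 6 Arf6-null tumors was BrafCA;Cdkn2af/f;Arf6f/f, so that "wild type" refers to Arf6 alone. The Cre driver, the age, the strain and whether the tumors came from separate animals are items not given in the sources used here, and p-values therefore measure the spread between these tumors. The design calls the tumors matched, but the labels name no pairs.

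Totals ran from 21007954 to 45688253 counts per library. Arf6 fell from 111 ± 24.9 to 18.3 ± 3.73 CPM (counts per library, brought to the same total for all; mean ± SD, n = 6 each; log2 fold change -2.60, adjusted p = 0.000101 by edgeR), with no overlap between the genotypes. Library numbers in the labels were 1 to 6 in wild type and 19 to 24 in Arf6-null, so anything that goes with this numbering and the genotype cannot be told apart. The labels do not say what the numbers stand for. Defining melanocyte markers were absent or nearly so: Mlana had 0 counts in every library, Tyr, Dct and Tyrp1 stayed at or below 0.0795 CPM and Sox10 at or below 1.23 CPM, while Mitf lay between 8.95 and 30.1 CPM. Markers known for other cell types differed in their summed level, and which cells carried these transcripts was not tested. The 12 fibroblast markers held 6572 to 23928 CPM among wild-type and 2338 to 16057 CPM among Arf6-null tumors. The 12 skeletal muscle markers held 28.6 to 2245 CPM and 6.48 to 65.7 CPM, highest in wild-type replicates 3, 4 and 5. The 4 Y-linked genes together reached from 0 to 248 CPM among wild-type (median 11.3) and from 0.444 to 218 CPM among Arf6-null tumors (median 193). They were near 0 in wild-type replicates 3, 5 and 6 and low in 1, and near 0 in Arf6-null replicate 6 alone of its group.

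Of the 46 genes, 37 had enough counts to be tested, and none passed the threshold of 0.05 on the adjusted p of the edgeR quasi-likelihood test, where 1.15% of all 16225 tested genes did. At an unadjusted p under 0.05 there were 12, or 32.4% of the 37, where 23.4% of all tested genes were. Of these, 10 were lower in Arf6-null tumors, where 12.4% of all tested genes were, and Wnt10a and Fzd3 were higher, where 11% of all tested genes were. Among the 37, 28 had a negative log2 fold change (Arf6-null over wild type), with a median of -0.42, against 8565 of 16225 and a median of -0.03 over all tested genes. The 6 wild-type and 6 Arf6-null values did not overlap for 1 gene, Ror1 (lower), where the same held for 2.36% of all tested genes, 1.21% in that direction. In bulk samples fewer cells of a type and less RNA per cell cannot be told apart.

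Calls among these genes depended on the test and on single libraries. The Wald test of DESeq2 called Wnt10a (higher) and Wnt10b, Lrp5 and Ror1 (lower), with 11.8% of all genes it tested called. At an adjusted p under 0.1 edgeR gave 3 (Wnt10b, Lrp5 and Ror1), with 8.38% of all genes. The limma-voom fit with quality weights called Wnt10a and Lrp5, with 5.74% of all genes called. With edgeR, Wnt10b was called without wild-type replicate 2 (adjusted p = 0.0486) and Lrp5 without wild-type replicate 5 (adjusted p = 0.0467), with 4.69% and 3.27% of all genes called. The number at an unadjusted p under 0.05 ran from 6 to 15 with 1 library left out, where between 18.3% and 26.6% of all tested genes were. It was 6 without wild-type replicate 3 or Arf6-null replicate 4 (19.2% and 18.3% of all genes), 7 without wild-type replicate 4 or Arf6-null replicate 1 (20.3% in both fits) and 15 without Arf6-null replicate 6 (25.7%). The values of 4 genes did not overlap without Arf6-null replicate 3, where 3.22% of all tested genes did not, and those of 3 without Arf6-null replicate 5, where 4.18% did not. Wnt10a, Wnt10b, Lrp5 and Ror1 stayed at an unadjusted p under 0.05 in each of the 12 fits that left out 1 library. Fzd3 did so in 11, Sfrp4 in 10, Fzd2, Fzd4 and Ror2 in 6, Tcf7l2 in 5, Fzd1 in 4 and Wnt5b in 3. The share of all tested genes that stayed there in all 12 fits was not counted.

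**Figure D1:**
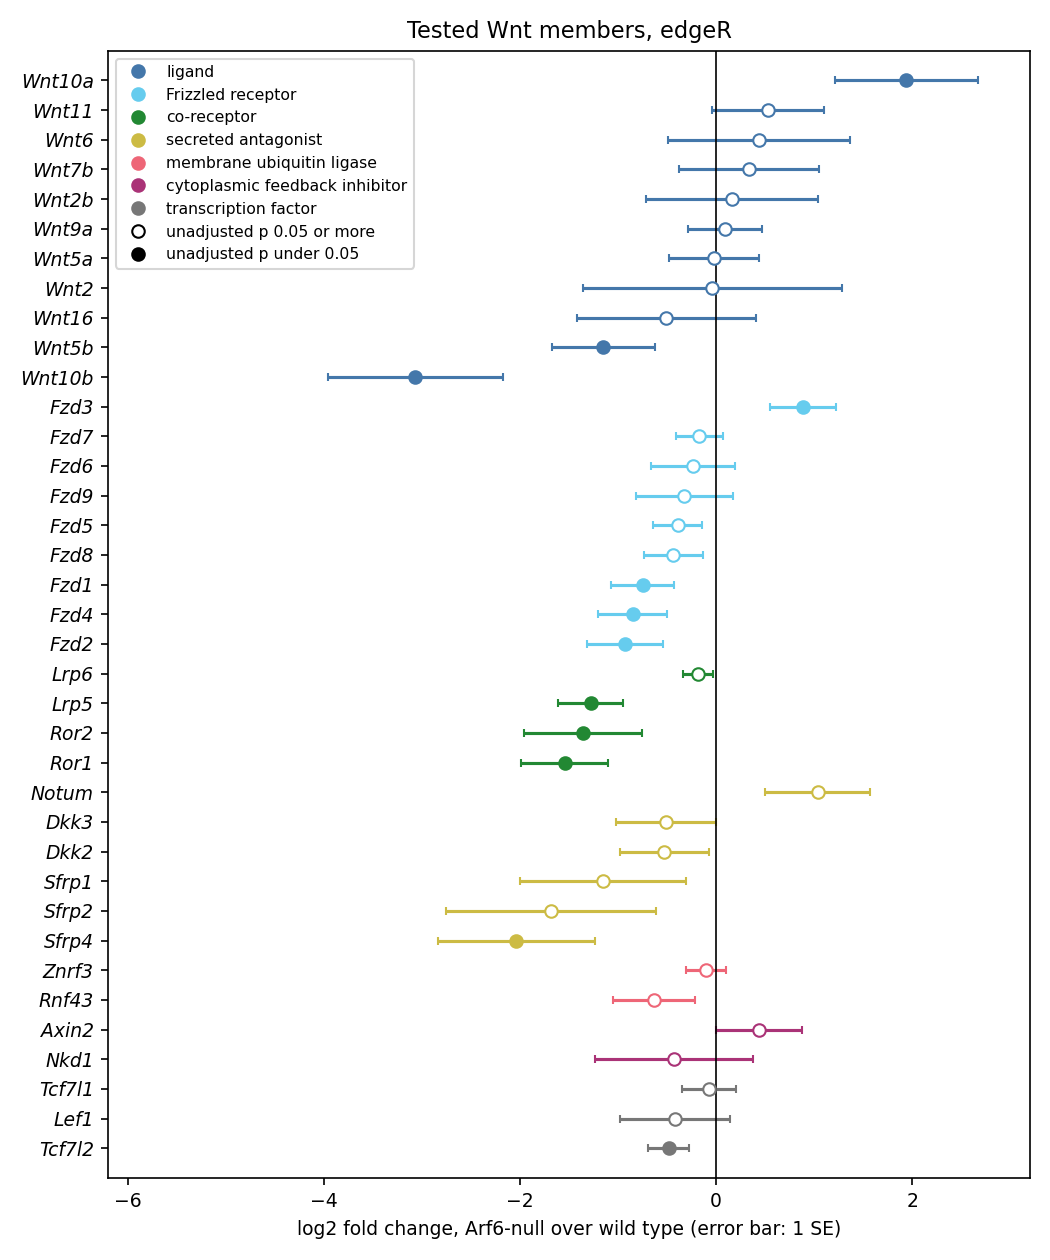
Log2 fold change (horizontal axis, Arf6-null over wild type) of the 37 tested genes from edgeR, 1 row per gene, grouped and colored by role, with error bars of 1 SE; filled points have an unadjusted p under 0.05. All 4 co-receptors and 8 of 9 Frizzled receptors lie left of 0, and the ligands run from -3.07 for Wnt10b to 1.94 for Wnt10a.

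The ligands varied most. Of 19 ligand genes 11 were tested, 6 with a positive and 5 with a negative log2 fold change and a median of 0.09. Wnt10a encodes a ligand known for beta-catenin signaling in skin and teeth and lies on chromosome 1 at 74791516 to 74804179 of GRCm38. Its lowest, median and highest levels were 1.05, 8.41 and 39.9 CPM among wild-type tumors and 13.8, 70.5 and 99.5 CPM among Arf6-null tumors. All Arf6-null tumors except replicate 3 were above the highest wild-type tumor. Wnt10a was at 16.2 ± 16.2 and 62.1 ± 29.4 CPM (log2 fold change 1.94 ± 0.73 SE, unadjusted p = 0.0202, adjusted p = 0.142 by edgeR), and without Arf6-null replicate 3 its values did not overlap between the genotypes.

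Wnt10b, the paralog of Wnt10a and a ligand known for its role in bone and fat cell fate (chromosome 15, 98770712 to 98778150), went the other way. In wild-type tumors its lowest, median and highest levels were 0.746, 5.67 and 21.2 CPM, and in Arf6-null tumors 0.386, 0.795 and 2.71 CPM. Wild-type replicates 1, 4 and 6 stood above every Arf6-null tumor, at 15.6, 21.2 and 9.47 CPM, whereas the other wild-type tumors, at 0.746 to 1.87 CPM, lay within the Arf6-null range. The log2 fold change was -3.07 ± 0.89 (SE; unadjusted p = 0.00476, adjusted p = 0.0803 by edgeR). The same 3 wild-type tumors had the highest fibroblast scores (mean log2 CPM of the 12 markers), 8.98, 8.50 and 9.07, against 5.77 to 8.35 in the other tumors. With that score as a covariate the log2 fold change of Wnt10b was -1.51 (unadjusted p = 0.209 by edgeR). With a skeletal muscle or Y-linked score as the covariate it was -3.78 and -3.32 (unadjusted p = 0.0145 and 0.00375 by edgeR). Without the 3 wild-type libraries richest in muscle markers it was -3.12 (unadjusted p = 0.00375 by edgeR). What set these levels was not tested.

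Wnt5a and Wnt5b encode ligands known for signaling without beta-catenin. Wnt5a (chromosome 14, 28504750 to 28527448) was at 119 ± 41.7 CPM among wild-type and 118 ± 72.9 CPM among Arf6-null tumors, and its log2 fold change was -0.02 ± 0.46 (SE; adjusted p = 0.985 by edgeR). Its values ran from 66.3 to 186 CPM, median 115 CPM, in wild type and from 18.7 to 206 CPM, median 116 CPM, in Arf6-null, so the Arf6-null range was the wider and held all 6 wild-type values, while Arf6-null replicates 3 and 6 lay above and 2 and 4 below every wild-type tumor. An antisense gene, Gm2670, covers 4.58% of the exon length of Wnt5a, and the strand setting of the counting is not given in the sources used here. Wnt5b was at 1.42, 5.11 and 8.19 CPM (lowest, median, highest) among wild-type and 0.858, 1.37 and 5.12 CPM among Arf6-null tumors (log2 fold change -1.15 ± 0.52 SE, unadjusted p = 0.0487, adjusted p = 0.21 by edgeR). Wild-type replicates 2, 4 and 5 and Arf6-null replicates 2 and 6 lay in the range of the other genotype.

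Per kb of exon, which allows levels to be compared between genes, the leading ligand differed from tumor to tumor. Wnt10a was first in 5 tumors (Arf6-null replicates 1, 2, 4 and 5 and wild-type replicate 5), Wnt5a in 5, Wnt7b in wild-type replicate 1 and Wnt2 in wild-type replicate 2. Wnt10a made up between 1.09% and 35.1% of the summed ligand level in wild-type and between 8.80% and 47.4% in Arf6-null tumors. Wnt5a made up 18.4% to 52.9% and 3.13% to 43.5%. The summed ligand level was 33.4 to 93.7 CPM per kb (median 42.6) in wild-type and 55.0 to 95.1 CPM per kb (median 66.3) in Arf6-null tumors, and these ranges overlapped. Wnt7b, named here after its values were seen, varied from 9.44 to 178 CPM among wild-type and from 16.3 to 113 CPM among Arf6-null tumors (log2 fold change 0.34 ± 0.71 SE).

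**Figure D2:**
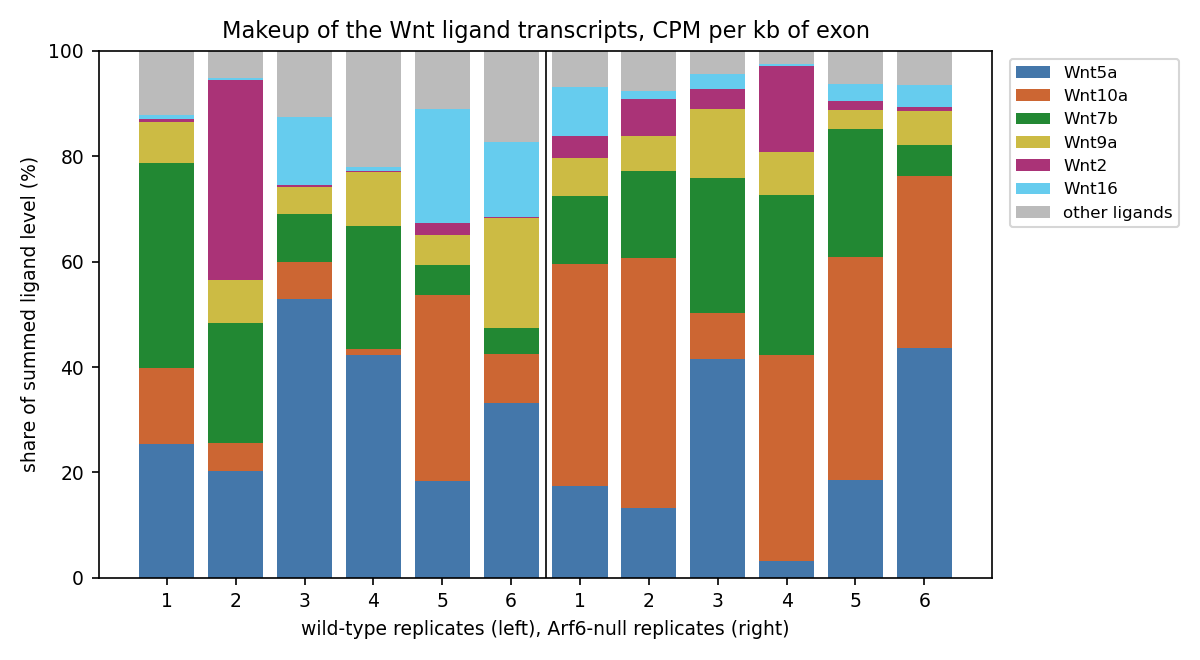
Share of the summed ligand level (vertical axis, %, from CPM per kb of exon) in each of the 12 tumors, wild-type replicates 1 to 6 on the left and Arf6-null replicates 1 to 6 on the right. The Wnt genes with the highest mean share are drawn singly, and the others are pooled. Wnt10a (orange) takes 32.6% or more in every Arf6-null tumor but replicate 3, and Wnt2 (purple) takes 37.9% in wild-type replicate 2.

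The other tested ligands, Wnt2, Wnt2b, Wnt6, Wnt7b, Wnt9a, Wnt11 and Wnt16, had log2 fold changes between -0.51 and 0.53, each within 1 SE of 0. The 8 ligands below the filter on low counts were Wnt1, Wnt3, Wnt3a, Wnt4, Wnt7a, Wnt8a, Wnt8b and Wnt9b. Wnt3a and Wnt7a had 0 counts in all 12 libraries, which allows up to 0.151 CPM in the smallest library (3 counts, counting error only). Wnt4 reached 115 counts, 4.29 CPM, in wild-type replicate 5 and at most 0.581 CPM in any Arf6-null tumor. Several of these genes are neighbors: Wnt6 and Wnt10a lie 6193 bases apart on chromosome 1, and Wnt10b and Wnt1 lie 11706 bases apart on chromosome 15. The log2 fold change of Wnt6 was 0.44 ± 0.92 (SE), and its difference from that of Wnt10a was not tested.

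Frizzled receptors are the membrane-spanning proteins that bind Wnt ligands. Of 10 genes 9 were tested (Fzd10 had at most 29 counts in a library) and none passed the adjusted threshold. At an unadjusted p under 0.05, 3 were lower and 1 was higher, where 12.4% and 11% of all tested genes were. A negative log2 fold change was found for 8 of the 9, where 52.8% of all tested genes had one, and the median was -0.39. Fzd1 was the most abundant per kb of exon in 9 of the 12 tumors. Its lowest, median and highest levels were 99.8, 119.5 and 157 CPM among wild-type and 29.8, 69.3 and 136 CPM among Arf6-null tumors (log2 fold change -0.75 ± 0.32 SE, unadjusted p = 0.0377, adjusted p = 0.185 by edgeR). All Arf6-null tumors but replicate 5 were below the lowest wild-type tumor.

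Fzd2, a receptor known for binding WNT5A, was at 29.0, 60.02 and 95.5 CPM (lowest, median, highest) among wild-type and 11.4, 32.7 and 45.8 CPM among Arf6-null tumors (log2 fold change -0.93 ± 0.39 SE, unadjusted p = 0.0344). Wild-type replicates 2 and 5 lay within the Arf6-null range, and the other wild-type tumors lay above it. Fzd4, the receptor described for the step from WNT5A to ARF6 (chromosome 7, 89404355 to 89413134), was at 8.87, 19.5 and 27.8 CPM among wild-type and 5.38, 10.4 and 19.5 CPM among Arf6-null tumors (log2 fold change -0.85 ± 0.36 SE, unadjusted p = 0.0334, adjusted p = 0.175 by edgeR). Wild-type replicates 3, 5 and 6 were above all Arf6-null tumors and the rest overlapped. Fzd3, known for axon guidance and planar cell polarity, was the exception among the Frizzled genes, at 6.96, 14.8 and 17.9 CPM among wild-type and 8.85, 25.3 and 42.8 CPM among Arf6-null tumors (log2 fold change 0.89 ± 0.34 SE, unadjusted p = 0.0211, adjusted p = 0.144 by edgeR). Only Arf6-null replicate 3, of the 6, was not above every wild-type tumor.

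The remaining Frizzled genes, Fzd5, Fzd6, Fzd7, Fzd8 and Fzd9, had log2 fold changes between -0.44 and -0.17. The summed level of the family was 51.8 to 88.6 CPM per kb (median 67.7) in wild-type and 32.1 to 60.2 CPM per kb (median 44.4) in Arf6-null tumors. Where Fzd1 was not the most abundant, Fzd2 was first in wild-type replicate 4 and Arf6-null replicate 3, and Fzd7 in Arf6-null replicate 4.

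**Figure D3:**
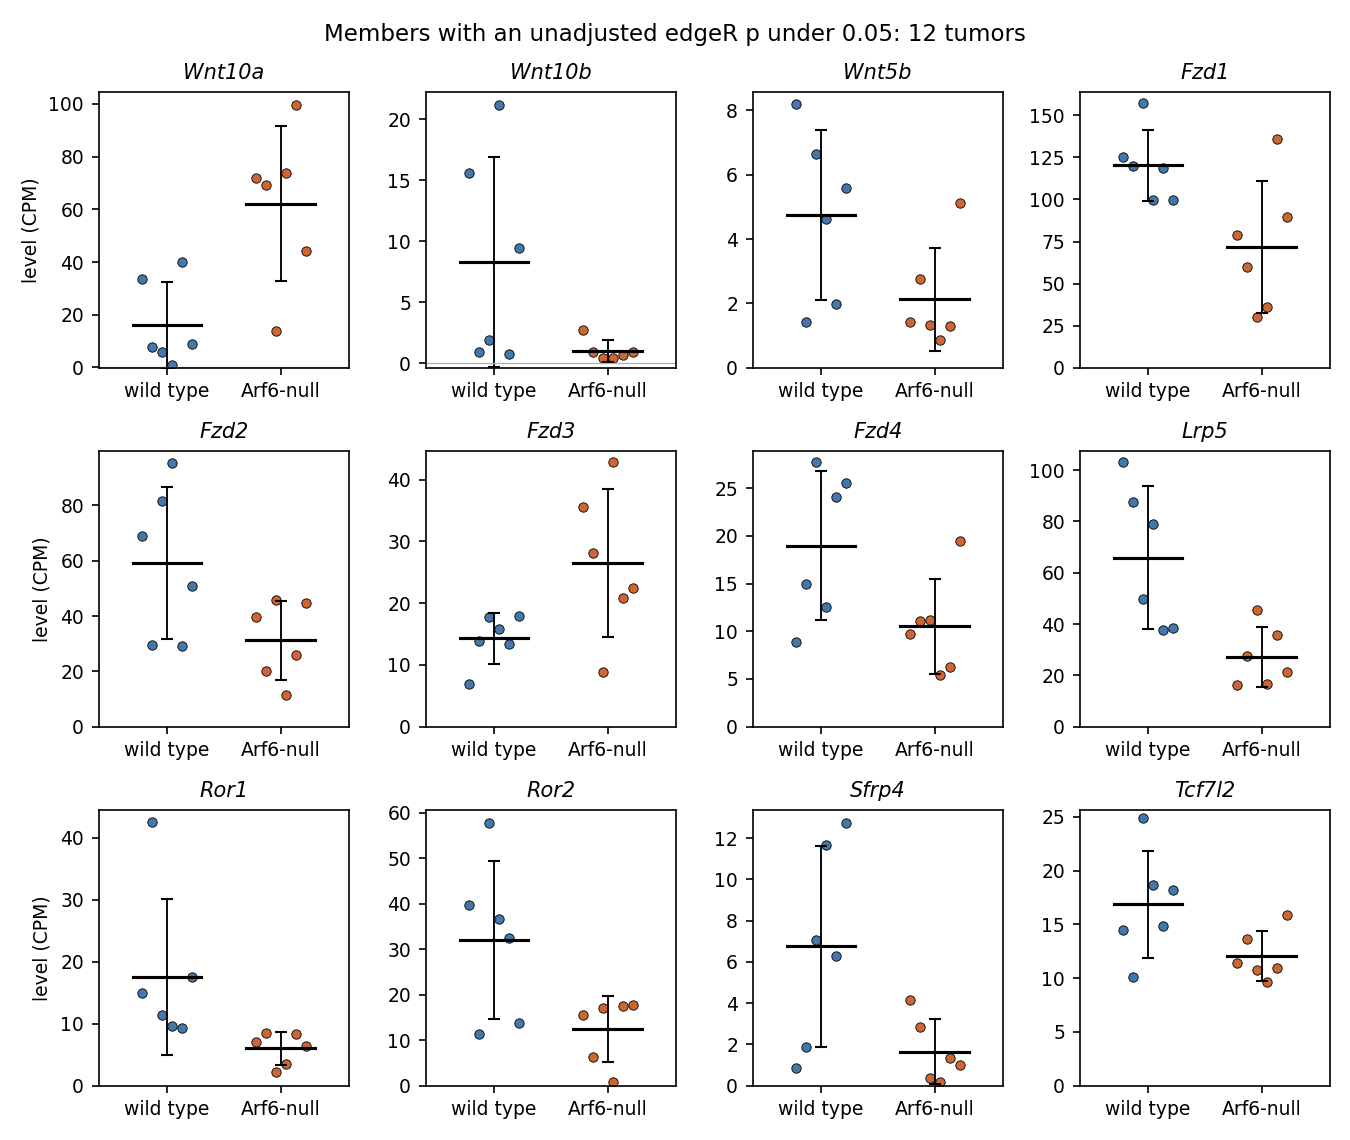
Level (vertical axes, CPM, each panel with its own scale) of the 12 genes with an unadjusted edgeR p under 0.05 in the 6 wild-type (blue) and 6 Arf6-null (orange) tumors; each point is a tumor, the horizontal line the mean and the bar 1 SD. The Ror1 points do not overlap, with the lowest wild-type tumor at 9.25 CPM and the highest Arf6-null tumor at 8.56 CPM, whereas in the other panels at least 1 tumor lies in the range of the other genotype.

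All 4 co-receptor genes had a negative log2 fold change, with a median of -1.32. Lrp5 and Lrp6 encode the paired co-receptors of beta-catenin signaling. Lrp5 (chromosome 19, 3584828 to 3686564) was at 37.7, 64.4 and 103 CPM (lowest, median, highest) among wild-type and 16.1, 24.6 and 45.3 CPM among Arf6-null tumors. All Arf6-null tumors but replicate 3 were below the lowest wild-type tumor. Its mean went from 65.9 ± 27.7 to 27.1 ± 11.6 CPM (log2 fold change -1.28 ± 0.33 SE, unadjusted p = 0.00228, adjusted p = 0.0652 by edgeR). Lrp6 (chromosome 6, 134446476 to 134566965) was at 102 ± 14.8 and 89.7 ± 20.5 CPM (log2 fold change -0.19 ± 0.15 SE, adjusted p = 0.489 by edgeR), with ranges of 86.0 to 126 CPM and 65.4 to 122 CPM that overlapped. Per kb of exon Lrp6 was the most abundant co-receptor in 8 tumors, among them all 6 Arf6-null tumors. The difference between the changes of Lrp5 and Lrp6 was not tested.

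Ror1 and Ror2 encode receptor tyrosine kinase-like proteins that bind WNT5A and are both known in melanoma cells. Ror1 (chromosome 4, 100095791 to 100444765) was at 9.25, 13.1 and 42.4 CPM (lowest, median, highest) among wild-type and 2.23, 6.70 and 8.56 CPM among Arf6-null tumors. Every wild-type tumor was above every Arf6-null tumor, by a small margin, and wild-type replicate 2 was far above the others. The mean went from 17.5 ± 12.6 to 6.00 ± 2.60 CPM (log2 fold change -1.55 ± 0.44 SE, unadjusted p = 0.00448, adjusted p = 0.0778 by edgeR). With 1 library left out the log2 fold change of Ror1 ran from -1.68 to -1.06. By limma-voom with quality weights it was -1.23. Ror2 (chromosome 13, 53109312 to 53286124) was at 11.4, 34.5 and 57.7 CPM among wild-type and 0.825, 16.3 and 17.6 CPM among Arf6-null tumors (log2 fold change -1.36 ± 0.60 SE, unadjusted p = 0.0436, adjusted p = 0.2 by edgeR). Wild-type replicates 2 and 6 lay within the Arf6-null range. In wild-type replicate 2 the pair stood in opposite places, with the highest Ror1 and the lowest Ror2 of its group.

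Start-site windows (250 bases before to 50 bases after the start) were at hand for 31 of the 46 genes, 39 windows in all, from RefSeq on GRCm38.p6. They were searched on both strands for CTTTGAT and CTTTGAA, forms of the core that LEF and TCF proteins bind, which 3.73% and 5.14% of all 32851 windows hold. CTTTGAT was found in windows of 2 of these genes, Wnt5b and Wnt11, and CTTTGAA in none. The windows of Ror1 and Ror2, which were lower together in Arf6-null tumors at an unadjusted p, are shown with those of Wnt5b, for its match, and of Axin2, the standard beta-catenin target. Letters are 5′ to 3′ on the strand of the gene, with a match in capitals. The Ror1 window is chr4:100095541-100095840 (plus strand), that of Ror2 chr13:53286075-53286374 (minus), that of Wnt5b chr6:119449337-119449636 (minus) and that of Axin2 chr11:108920099-108920398 (plus).
Ror1: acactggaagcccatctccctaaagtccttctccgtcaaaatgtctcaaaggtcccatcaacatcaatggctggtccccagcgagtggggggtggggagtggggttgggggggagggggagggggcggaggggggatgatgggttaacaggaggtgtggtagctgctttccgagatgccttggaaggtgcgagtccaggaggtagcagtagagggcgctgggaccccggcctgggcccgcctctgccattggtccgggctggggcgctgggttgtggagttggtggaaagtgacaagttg
Ror2: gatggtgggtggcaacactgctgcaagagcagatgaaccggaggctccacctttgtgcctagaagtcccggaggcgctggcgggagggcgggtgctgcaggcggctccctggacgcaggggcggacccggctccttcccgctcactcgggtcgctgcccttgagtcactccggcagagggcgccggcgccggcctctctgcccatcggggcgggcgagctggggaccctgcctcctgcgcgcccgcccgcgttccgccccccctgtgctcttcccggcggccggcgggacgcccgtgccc
Wnt5b: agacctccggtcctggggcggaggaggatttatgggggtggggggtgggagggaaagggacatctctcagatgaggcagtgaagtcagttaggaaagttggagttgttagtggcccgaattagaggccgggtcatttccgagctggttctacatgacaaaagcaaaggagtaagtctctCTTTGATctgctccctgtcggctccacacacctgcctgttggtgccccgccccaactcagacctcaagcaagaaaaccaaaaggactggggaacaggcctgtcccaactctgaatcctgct
Axin2: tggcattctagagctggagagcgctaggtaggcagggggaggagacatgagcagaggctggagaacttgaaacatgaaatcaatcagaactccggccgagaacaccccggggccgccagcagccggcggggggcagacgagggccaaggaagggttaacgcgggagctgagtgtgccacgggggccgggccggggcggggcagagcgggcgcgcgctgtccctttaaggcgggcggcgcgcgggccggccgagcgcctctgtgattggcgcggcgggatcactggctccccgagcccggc
The GC content of the Ror1 window was 62.3% with 10 CpG dinucleotides, and that of the Ror2 window 74.7% with 32, where the medians over all windows were 52.7% and 7. The match in the Wnt5b window begins 71 bases before the start of that window's transcript. For a gene with several windows, the one with a match was printed. This start lies inside the annotated gene, which spans 119432531 to 119544347 on the minus strand. A match is a string of letters and not a measured binding site, and windows without one show only that these letters are not in these 300 bases.

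Secreted antagonists bind Wnt proteins, strip them of their lipid or block their co-receptors. Of 6 genes, 5 had a negative log2 fold change, with a median of -0.84. Per kb of exon Dkk3 was first in 6 tumors, Dkk2 in 4 and Notum in Arf6-null replicates 2 and 4. Dkk3, a divergent member of the Dickkopf family, was at 109, 266 and 307 CPM (lowest, median, highest) among wild-type and 26.7, 114 and 361 CPM among Arf6-null tumors (log2 fold change -0.51 ± 0.51 SE, adjusted p = 0.576 by edgeR). Dkk2, a ligand of LRP5 and LRP6, was at 65.9, 228 and 325 CPM among wild-type and 38.6, 136 and 260.1 CPM among Arf6-null tumors (log2 fold change -0.53 ± 0.45 SE, adjusted p = 0.509 by edgeR). The ranges of both genes overlapped, and Arf6-null replicate 4 was the lowest tumor for both.

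Sfrp4, one of the secreted Frizzled-related proteins, was at 0.875, 6.67 and 12.7 CPM (lowest, median, highest) among wild-type and 0.165, 1.19 and 4.17 CPM among Arf6-null tumors (log2 fold change -2.04 ± 0.80 SE, unadjusted p = 0.0251, adjusted p = 0.155 by edgeR). Wild-type replicates 1 and 2 lay within the Arf6-null range, and the other wild-type tumors lay above it. Its relatives Sfrp1 and Sfrp2 had log2 fold changes of -1.16 (SE 0.85) and -1.69 (SE 1.07). Sfrp2 ran from 1.257 to 111 CPM within the wild-type group alone. Notum encodes the enzyme that removes the lipid of Wnt proteins and is itself a target of beta-catenin. It was at 7.58, 28.2 and 56.3 CPM among wild-type and 25.8, 60.0 and 106 CPM among Arf6-null tumors (log2 fold change 1.04 ± 0.54 SE, unadjusted p = 0.0791, adjusted p = 0.269 by edgeR). Arf6-null replicates 1, 2 and 5 were above all wild-type tumors, and the others overlapped with them. Notumos and Myadml2os lie on the other strand across 29.4% and 8.72% of the exon length of Notum. Notum, Sfrp1 and Sfrp2 are named after their values were seen.

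The ranges of Axin2, Nkd1, Rnf43 and Znrf3, which report or restrain beta-catenin signaling, overlapped between the genotypes. Axin2, a scaffold of the destruction complex that is switched on by beta-catenin (chromosome 11, 108920349 to 108950783), was at 5.88, 11.4 and 16.5 CPM (lowest, median, highest) among wild-type and 3.96, 13.3 and 29.8 CPM among Arf6-null tumors. Arf6-null replicates 1 and 5, at 24.8 and 29.8 CPM, were above all wild-type tumors, and replicate 4 was below them all. The log2 fold change was 0.44 ± 0.44 (SE; adjusted p = 0.58 by edgeR). Nkd1, which restrains Dishevelled, was at 3.32 ± 2.86 and 2.46 ± 2.69 CPM (log2 fold change -0.43 ± 0.81 SE), with wild-type replicates 1 and 2 and Arf6-null replicates 3 and 5 at 4.81 CPM or more and all other tumors at 2.66 CPM or less. Rnf43 and Znrf3, membrane ubiquitin ligases that remove Frizzled receptors, were at 1.05 ± 0.334 against 0.669 ± 0.455 CPM and 7.49 ± 1.72 against 6.97 ± 1.49 CPM (log2 fold changes -0.64 and -0.10, SE 0.42 and 0.20, edgeR adjusted p = 0.382 and 0.791).

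Of the transcription factors that carry beta-catenin to its targets, Tcf7l2 was at 10.1, 16.5 and 24.9 CPM (lowest, median, highest) among wild-type and 9.61, 11.2 and 15.9 CPM among Arf6-null tumors (log2 fold change -0.48 ± 0.21 SE, unadjusted p = 0.0363, adjusted p = 0.182 by edgeR), and the ranges overlapped. Tcf7l1, which mostly represses, was at 15.8 ± 6.70 and 15.1 ± 3.36 CPM (log2 fold change -0.07 ± 0.28 SE, adjusted p = 0.901 by edgeR). Lef1 was at 1.97 ± 0.805 and 1.47 ± 1.63 CPM (log2 fold change -0.42 ± 0.56 SE, adjusted p = 0.688 by edgeR). Arf6-null replicate 5 had the highest Lef1 of all tumors, at 4.72 CPM, while the other Arf6-null tumors, at 0.327 to 1.18 CPM, were all below the lowest wild-type tumor at 1.36 CPM. The antisense gene Gm43352 covers 13.7% of the exon length of Lef1. Genes on the other strand also cover 17.8% of the exon length of Fzd5, 16.1% of Sfrp2, 8.8% of Wnt11, 6.61% of Wnt7b, 4.56% of Tcf7l1, 3.8% of Axin2 and 3.15% of Fzd6, and reads of such pairs may not be told apart.

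**Figure D4:**
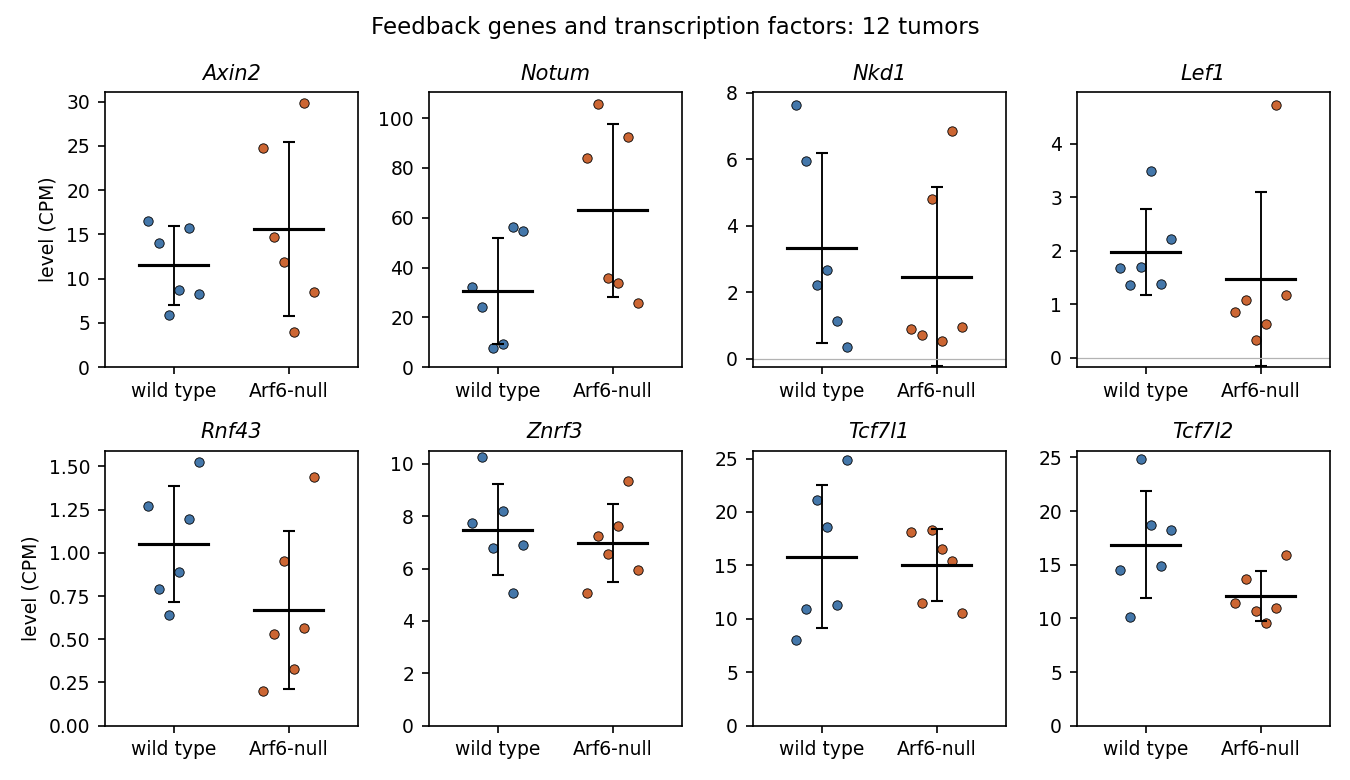
Level (vertical axes, CPM, each panel with its own scale) of feedback inhibitors, ubiquitin ligases, Notum and the LEF and TCF genes in the 6 wild-type (blue) and 6 Arf6-null (orange) tumors; points are tumors, lines are means and bars are 1 SD. The genotypes overlap in every panel, with Axin2 at 5.88 to 16.5 CPM among wild-type and 3.96 to 29.8 CPM among Arf6-null tumors.

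Since the fibroblast, skeletal muscle and Y-linked markers differed between the libraries, the fit was repeated with each score as a covariate. It was also repeated without the 3 wild-type libraries richest in muscle markers. Of the fibroblast markers 11 of 12 had a negative log2 fold change, of the skeletal muscle markers 12 of 12 (1 past the adjusted threshold), of the smooth muscle and pericyte markers all 7 tested, and of the endothelial markers 7 of 8. Of the macrophage markers 6 of 7 were negative, of the T cell markers 4 of 6, of the Schwann cell markers 6 of 8 and of the adipocyte markers all 4 tested. Of the keratinocyte and hair follicle markers 4 of 11 were tested, 2 in each direction, and Krt71 and Krt25 were at 0. With the fibroblast score, 3 genes had an unadjusted p under 0.05 (Fzd9, Lrp5 and Ror1, all lower), where 10.5% of all tested genes did. With the skeletal muscle score there were 4 (Wnt10b, Fzd3, Lrp5 and Ror1) and with the Y-linked score 5 (those and Wnt10a), where 12.9% and 17.8% of all tested genes did. Without the 3 libraries there were 4 (Wnt10a, Wnt10b, Lrp5 and Ror1), where 15.3% did. None passed the adjusted threshold in these fits.

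Lrp5 and Ror1 kept an unadjusted p under 0.05 in each of these fits. The share of all tested genes that did so in every fit was not counted. The log2 fold change of Lrp5 was -1.12 with the fibroblast score, -1.63 with the skeletal muscle score, -1.55 with the Y-linked score and -1.48 without the 3 libraries. That of Ror1 was -1.71, -2.18, -1.70 and -2.04 in the same order. Wnt10a lay between 1.65 and 2.19 in these fits. In the order above Ror2 was at -0.57, -0.90, -1.19 and -0.78 and Fzd2 at -0.22, -0.86, -0.90 and -0.67. Wnt5b was at -0.27, -1.16, -0.92 and -1.23 and Sfrp4 at -1.28, -1.41, -1.98 and -1.64. Fzd1 was at -0.59, -0.69, -0.66 and -0.67 and Fzd3 at 0.53, 1.17, 0.95 and 1.04. Fzd4 was at -0.58, -0.54, -0.43 and -0.64 and Tcf7l2 at -0.28, -0.08, -0.30 and -0.23 in the order above.

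**Figure D5:**
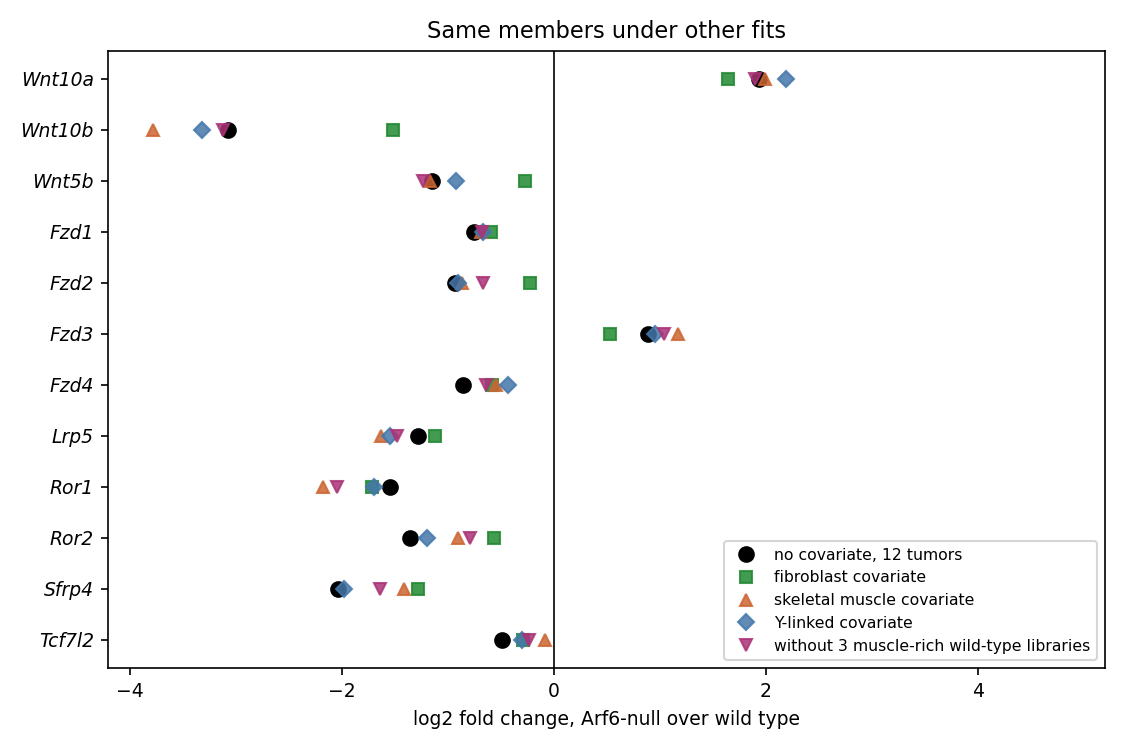
Log2 fold change (horizontal axis, Arf6-null over wild type) of the 12 genes with an unadjusted edgeR p under 0.05, 1 row per gene, in the fit of all 12 tumors without covariate (black), with the fibroblast, skeletal muscle or Y-linked score as a covariate, and without the 3 wild-type libraries richest in muscle markers. Ror1 lies between -2.18 and -1.55 and Lrp5 between -1.63 and -1.12. Wnt10b lies at -1.51 with the fibroblast score and between -3.78 and -3.07 in the other fits.

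Other genes of the pathway were taken from lists by function, chosen with earlier results of these data known. Of 29 genes of Wnt secretion, of R-spondin and its receptors and of further antagonists, 19 were tested and none passed edgeR's adjusted threshold, with 2 higher and 3 lower at an unadjusted p under 0.05 (11% and 12.4% of all tested genes) and a median of -0.56. The smallest p belonged to Apcdd1, a membrane inhibitor of Wnt signaling and a target of beta-catenin, at 94.8 ± 38.4 and 246 ± 112 CPM (log2 fold change 1.38 ± 0.36 SE, adjusted p = 0.0663 by edgeR), followed by the glypican Gpc6 at 24.4 ± 15.6 and 7.42 ± 4.44 CPM (adjusted p = 0.138 by edgeR). All 27 genes of the destruction complex and signal relay were tested, and none passed, with 1 higher and 6 lower at an unadjusted p under 0.05 and a median of -0.06. Ctnnb1, which encodes beta-catenin, was at 905 ± 198 and 869 ± 78.0 CPM (log2 fold change -0.06 ± 0.14 SE). Dact1, a Dishevelled-binding protein, was at 8.98 ± 3.79 and 2.46 ± 1.28 CPM (log2 fold change -1.87 ± 0.41 SE, adjusted p = 0.0525 by edgeR), and Ccdc88c, another Dishevelled-binding protein, at 41.0 ± 15.7 and 7.65 ± 8.70 CPM (log2 fold change -2.42 ± 0.63 SE, adjusted p = 0.0659 by edgeR).

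Of 24 transcription partners and targets of beta-catenin 21 were tested and none passed, with 2 higher and 5 lower at an unadjusted p under 0.05 (again beside 11% and 12.4% of all tested genes) and a median of -0.16. Jag1, a Notch ligand that beta-catenin can induce, was at 39.1 to 69.8 CPM among wild-type and 11.7 to 36.4 CPM among Arf6-null tumors. Its values did not overlap (log2 fold change -1.11 ± 0.24 SE, adjusted p = 0.052 by edgeR), where 1.21% of all tested genes were lower without overlap. The corepressor Tle2 was at 38.2 ± 17.1 and 18.96 ± 4.19 CPM (adjusted p = 0.0838 by edgeR).

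Planar cell polarity and calcium signaling genes held 2 that fell past the adjusted threshold, where 0.561% of all tested genes did. Because the list was chosen with earlier results of these data known, this count only describes the list and was not tested. Of 30 genes 29 were tested, with 3 higher and 10 lower at an unadjusted p under 0.05, where 11% and 12.4% of all tested genes were, and a median of -0.27. Celsr2, a cadherin of planar cell polarity, went down from 1.23 ± 0.183 to 0.438 ± 0.178 CPM (SD, n = 6; log2 fold change -1.47 ± 0.27 SE, adjusted p = 0.0307 by edgeR), on 202 and 93 counts over the 6 libraries of each genotype. Plcb4, a phospholipase that releases the calcium signal, went down from 32.1 ± 13.5 to 13.5 ± 3.55 CPM (log2 fold change -1.25 ± 0.27 SE, adjusted p = 0.0473 by edgeR). Neither gene overlapped between the genotypes, where 1.21% of all tested genes were lower without overlap. Celsr2 passed in 5 of the 12 fits that left out 1 library and was lost without wild-type replicate 1, 3, 4 or 6 or Arf6-null replicate 1, 2 or 4 (adjusted p up to 0.0746). Plcb4 passed in 3 and was lost without wild-type replicate 1, 3, 4 or 6 or any Arf6-null replicate but 6 (adjusted p up to 0.0971). By edgeR with the fibroblast, skeletal muscle or Y-linked score as a covariate the adjusted p was 0.192, 0.129 and 0.0721 for Celsr2 and 0.271, 0.247 and 0.121 for Plcb4, and without the 3 muscle-rich wild-type libraries 0.15 and 0.117. Without a filter on low counts it was 0.0679 and 0.0557, and with a filter of 1 CPM in 6 libraries that of Plcb4 was 0.0508. DESeq2 and limma-voom called both genes.

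Of 8 genes around the step from WNT5A to ARF6, Arf6 fell and Cyth2 rose, and the median was 0.06. Of all tested genes 0.586% rose past the adjusted threshold, and 1.15% were higher without overlap between the genotypes. Cyth2, an exchange factor that activates ARF proteins, was at 87.7 to 106 CPM among wild-type and 121 to 171 CPM among Arf6-null tumors, without overlap (log2 fold change 0.56 ± 0.10 SE, adjusted p = 0.0267 by edgeR). It passed in 6 of the 12 fits that left out 1 library and was lost without wild-type replicate 1, 3, 4 or 6 or Arf6-null replicate 1 or 2 (adjusted p up to 0.0663). By edgeR its adjusted p was 0.188, 0.138 and 0.0786 with the fibroblast, skeletal muscle or Y-linked score as a covariate and 0.125 without the 3 muscle-rich libraries. Iqsec1, another exchange factor of ARF6, was at 54.9 ± 14.9 and 60.3 ± 20.3 CPM, and Cdh2, which encodes N-cadherin, at 125 ± 46.7 and 166 ± 43.6 CPM (log2 fold changes 0.14 and 0.41, SE 0.23 and 0.27, edgeR adjusted p = 0.761 and 0.394).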

How the data were processed

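RNA sequencing of 12 mouse tumors was analysed from the deposited table of raw read counts per gene. The deposited counts are whole numbers without normalization. Libraries were TruSeq Stranded mRNA, from RNA taken up with Direct-zol columns, per the labels' protocols. The submitters' processing notes name STAR 2.7.3a, featureCounts 1.6.3, DESeq2 1.26.0 and the build GRCm38 (mm10), and the strand setting is not given in the sources used here. Groups came from the genotype in the labels and columns from the titles.

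From these counts, genes were filtered with filterByExpr (minimum count 10), which left 16225 of 55487 genes and 99.9% of all counts. TMM factors scaled the libraries, and edgeR 4.0.16 (robust quasi-likelihood F test, two-sided, R 4.3.3) compared the genotypes, with p-values Benjamini-Hochberg adjusted over all tested genes at a threshold of 0.05. SE values were derived from the F statistic. CPM use the scaled library sizes, CPM per kb the union of exons in GENCODE M21, and log2 CPM scores a prior count of 2. Totals of 21007954 to 45688253 counts put 1 count at well under 0.1 CPM. The fit was tested on simulated counts.

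Genes were named if their unadjusted p was under 0.05, if they were among the 2 most abundant of their role per kb of exon, or if they were Wnt5a, Fzd4, Lrp6, Ror2, Axin2 or Lef1, and in other lists if they passed the adjusted threshold or had 1 of the 2 smallest p-values. Ctnnb1, Iqsec1 and Cdh2 of the other lists were given outside this rule. The genes and lists were chosen with earlier results of these data known. Alternatives were other scalings, DESeq2 1.42.0, limma-voom (limma 3.58.1) with quality weights, other filters, thinned counts, marker scores as covariates, a threshold of 0.1 and each library left out. The fit without the 3 muscle-rich wild-type libraries was chosen after seeing the data.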

Additional observations from a re-analysis of the deposited data

Results flagged for a closer look

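In 7 of 74 sets of 6 values (37 genes in each genotype) a single library stood apart from the 5 others of its group. The gap was 0.646 or more of the range of the 6 values on the log2(CPM + 1) scale. A nominal rate of about 1 in 20 was assumed. The sets share libraries, so the count was not tested against that rate. Wnt2 was at 5.70 on that scale in wild-type replicate 2 (51.1 CPM, the others 0.131 to 2.31 CPM), and Dkk3 was at 6.79 in the same library (109 CPM, the others 225 to 307 CPM). Fzd3 was at 2.99 in wild-type replicate 1 (6.96 CPM, the others 13.3 to 17.9 CPM). Among Arf6-null libraries, Wnt10b was at 1.89 in replicate 1 (2.71 CPM, the others 0.386 to 0.919 CPM) and Wnt2b at 2.85 in replicate 3 (6.21 CPM, the others 0.297 to 1.05 CPM). Wnt6 was at 3.02 (7.10 CPM, the others 0.475 to 1.69 CPM) and Lef1 at 2.52 (4.72 CPM, the others 0.327 to 1.18 CPM) in Arf6-null replicate 5, which also had the highest Axin2.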

How the results depend on the processing

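The number of genes past the adjusted threshold was 0 by edgeR under other scalings, filters, thinned counts and covariates. It was 4 by DESeq2 and 2 by limma-voom with quality weights, where 11.8% and 5.74% of all genes were called. At a threshold of 0.1 it was 3 (Wnt10b, Lrp5 and Ror1, with 8.38% of all genes). With 1 library left out it was 0 to 1, and it was 1 without wild-type replicate 2 or 5 (4.69% and 3.27% of all genes). The number at an unadjusted p under 0.05 was 3 with the fibroblast, 4 with the skeletal muscle and 5 with the Y-linked covariate. The shares of all tested genes in those fits were 10.5%, 12.9% and 17.8%. The number was 4 without the 3 muscle-rich libraries (15.3% of all genes) and 6 to 15 with 1 library left out (18.3% to 26.6% of all genes). The number of genes without overlap was 1 to 4 with 1 library left out, where 2.55% to 4.91% of all tested genes did not overlap: 4 without Arf6-null replicate 3 (Wnt10a, Fzd3, Lrp5 and Ror1; 3.22% of all genes) and 3 without Arf6-null replicate 5 (Fzd1, Ror1 and Lef1; 4.18%).

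Of 504 values of the 22 named genes, 475 kept direction and side of the threshold, 8 newly passed it and 21, in 7 genes, changed sign. Those 7 genes had no call in any fit. Wnt5a was at 0.0197 with the Y-linked covariate, 0.73 with the fibroblast covariate and 0.0207 without a filter, and at -0.25 to 0.21 with 1 library left out. Tcf7l1 was at 0.0121, 0.02875 and 0.20 with the Y-linked, fibroblast and skeletal muscle covariates, 0.05336 without the 3 libraries, and at -0.20 to 0.11 with 1 library left out. With the skeletal muscle covariate Lrp6 and Lef1 were at 0.0542 and 0.0494, and with the fibroblast covariate Dkk3 was at 0.24. With 1 library left out Znrf3 ran from -0.20 to 0.008545 (without wild-type replicate 2) and Nkd1 from -1.06 to 0.003822 (without wild-type replicate 1). The cause was not tested. Of 229 values of 10 genes of the other lists none changed sign, and 173 kept their side of the threshold. A further 19 newly passed it, and 37, of Celsr2, Plcb4 and Cyth2, no longer did. No paired analysis was possible because the labels name no pairs. Counts limit Celsr2, Fzd9 and Rnf43 most, and the untested genes entirely.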

Other observations

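Over the 12 tumors the level of Axin2 was set against that of each of the 36 other tested genes (log2 CPM, permutation test with adjustment over the 36). No relation passed the adjusted threshold. Wnt6 came closest (Pearson r = 0.68, permutation p = 0.0139, adjusted p = 0.501; Spearman rho = 0.75, permutation p = 0.00712, adjusted p = 0.256), with r = 0.62 without the 2 tumors farthest from the median Axin2 level (Arf6-null replicates 4 and 5), 0.81 within wild type and 0.63 within Arf6-null. Notum followed (r = 0.63, permutation p = 0.0291, adjusted p = 0.525; rho = 0.58, permutation p = 0.0523, adjusted p = 0.938), with r = 0.71 without those tumors, 0.62 within wild type and 0.77 within Arf6-null. Within 1 genotype other genes had r of larger size, such as Tcf7l1 (-0.91) and Tcf7l2 (-0.83) in wild type and Wnt16 (0.81) in Arf6-null. The values within a genotype rest on 6 tumors and were not tested.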
